A study of Mus musculus with 6 samples.

Results

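Multi-exon cassettes are runs of neighbouring exons that are either all kept or all left out between the same pair of flanking exons. They were read here from events deposited for sorted DN3 thymocytes, where each event carries an FPKM value (fragments scaled by transcript length and by library size) for the transcripts with one splicing structure. An including and a skipping event were joined into a pair where they shared the assembled locus, the chromosome, the strand, the inner span and both flanking exon edges. The cassettes were selected on event type and level: of 1893 pairs, 730 had a mean of at least 5 FPKM for inclusion plus skipping over the 6 libraries. They stand among 9781 pairs of 8 kinds (single or multiple exons and introns, and variants of each) that passed the same threshold. The 3 pairs just inside it, in Cep63, Erbin and Phf3, averaged 5.01 to 5.04 FPKM, and the 3 just outside, in Cyld, Lrrc40 and Gnpda1, averaged 4.99 FPKM.

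Hspa9 cKO and WT mice, untreated and 5 weeks old, gave 3 libraries each. Hspa9 encodes GRP75, a chaperone of the mitochondrial matrix, and the study compared early thymocytes with and without it. DN3 thymocytes carry CD25 but not CD4, CD8 or CD44, and they lack markers of other lineages. The labels name no Cre driver and do not tie libraries to animals, so the spread behind each p-value may be technical only.

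All 11 DN3 markers were listed, with summed levels of 3026 to 3626 FPKM in Hspa9 cKO and 2777 to 3124 FPKM in WT. Of these, 7 were higher in Hspa9 cKO without overlap, 2 lower and 2 overlapped. Il2ra, the gene of CD25, stood at 381.1, 366.5 and 382.9 FPKM in Hspa9 cKO and at 158.4, 154.6 and 145.3 FPKM in WT. Tcf7, the gene of the factor TCF1, stood at 315.7, 264.4 and 262.2 FPKM in Hspa9 cKO and at 595.6, 414.5 and 439.6 FPKM in WT, and Dntt, the terminal transferase gene, was the other lower one. Later thymocyte markers (3 of 3 listed) summed to 3.15 to 4.60 FPKM in Hspa9 cKO and 7.06 to 8.24 FPKM in WT, and earlier progenitor markers (3 of 3) to 6.27 to 8.44 FPKM in Hspa9 cKO and 7.22 to 8.42 FPKM in WT. Erythroid markers (3 of 3) summed to 14.7 to 24.1 FPKM in Hspa9 cKO and 25.9 to 31.7 FPKM in WT, and myeloid markers (3 of 4, without Itgam) to 13.5 to 15.5 FPKM in Hspa9 cKO and 8.92 to 14.9 FPKM in WT. Of 4 markers of thymic epithelium Epcam was listed, at 36.7 to 43.0 FPKM in Hspa9 cKO and 27.2 to 29.1 FPKM in WT, while Krt8, Krt5 and Foxn1 were not, and none of 4 B cell and 2 NK cell markers was listed. The part of these shifts in the results was not tested. In bulk libraries, fewer cells of a type and less RNA per cell cannot be told apart. Without counts, sequencing depth is unknown.

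As background, splicing removes introns and joins exons, and an exon is passed over when its splice sites are not used. Skipping several exons together removes whole codons when their summed length is a multiple of 3, and otherwise shifts the reading frame. SR proteins and hnRNPs are RNA-binding proteins that promote or repress the use of exons, and in T cells a well-known run of cassette exons lies in Ptprc, the gene of the phosphatase CD45.

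The spliced sequences of 5 coding cassettes are given because their groups lie apart in the comparison of genotypes. Capitals mark the cassette and lower case the 20 bases of the exon on each side, read 5′ to 3′ in GENCODE M21 transcripts (mm10). The coordinates span the cassette with its inner introns.
Ppil2, chr16:17103576-17109694, minus strand: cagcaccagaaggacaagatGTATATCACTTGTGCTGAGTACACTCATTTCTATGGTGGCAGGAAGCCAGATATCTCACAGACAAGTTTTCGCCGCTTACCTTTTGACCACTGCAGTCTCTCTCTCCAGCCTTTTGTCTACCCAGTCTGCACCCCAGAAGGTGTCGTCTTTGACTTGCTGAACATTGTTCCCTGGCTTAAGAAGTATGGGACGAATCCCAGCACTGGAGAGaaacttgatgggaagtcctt
Nfyc, chr4:120779120-120781543, minus strand: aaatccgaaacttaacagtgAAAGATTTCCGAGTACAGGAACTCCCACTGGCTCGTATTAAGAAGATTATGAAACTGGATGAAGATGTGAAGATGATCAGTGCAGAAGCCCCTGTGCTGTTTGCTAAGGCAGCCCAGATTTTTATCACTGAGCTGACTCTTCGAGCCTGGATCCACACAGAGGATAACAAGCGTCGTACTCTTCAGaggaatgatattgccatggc
Slmap, chr14:26459410-26459954, minus strand: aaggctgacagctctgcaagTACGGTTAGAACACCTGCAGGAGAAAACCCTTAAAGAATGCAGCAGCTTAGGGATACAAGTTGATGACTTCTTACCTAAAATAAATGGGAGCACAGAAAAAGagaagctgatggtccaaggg
Pecam1, chr11:106662002-106671798, minus strand: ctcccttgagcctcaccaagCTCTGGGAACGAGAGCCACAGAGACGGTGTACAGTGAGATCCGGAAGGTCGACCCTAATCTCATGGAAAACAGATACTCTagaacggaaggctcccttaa
Cd47, chr16:49908054-49908735, plus strand: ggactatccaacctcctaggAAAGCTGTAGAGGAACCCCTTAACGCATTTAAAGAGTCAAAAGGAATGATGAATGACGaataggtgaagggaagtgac

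The cassettes fell into 590 genes, of which 490 held 1 pair and 100 held several. Gnb1l, a WD-repeat gene, held the most, with 8. The runs had 2 exons in 594 pairs, 3 in 95, 4 in 25 and more in the others. Summed cassette length had a median of 239 nucleotides and ranged from 38 nucleotides in Rps24, a ribosomal protein gene, to 6081 nucleotides. In the annotation 465 cassettes were coding throughout and 108 in part, 28 lay in untranslated regions and 22 in noncoding transcripts. A further 33 had annotated exons in a chain that no transcript carries, and 74 held an exon or edge outside the annotation. In 316 pairs (43.3%) none of the skipped exons was also listed as a paired single skipped exon, and in 292 pairs every one was.

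Most cassettes were kept in most transcripts. The inclusion share, the FPKM of the including event as a percentage of both events, had a median of 97.0% over the 730 cassettes and of 82.9% over 5084 single skipped exons. It was 99% or more in 238 cassettes, between 90% and 99% in 218, between 10% and 90% in 148, between 1% and 10% in 83 and under 1% in 43. Coding cassettes had a median share of 98.4%, those in untranslated regions of 3.49%, those in noncoding transcripts of 14.9% and those with an exon outside the annotation of 17.3%.

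**Figure D1:**
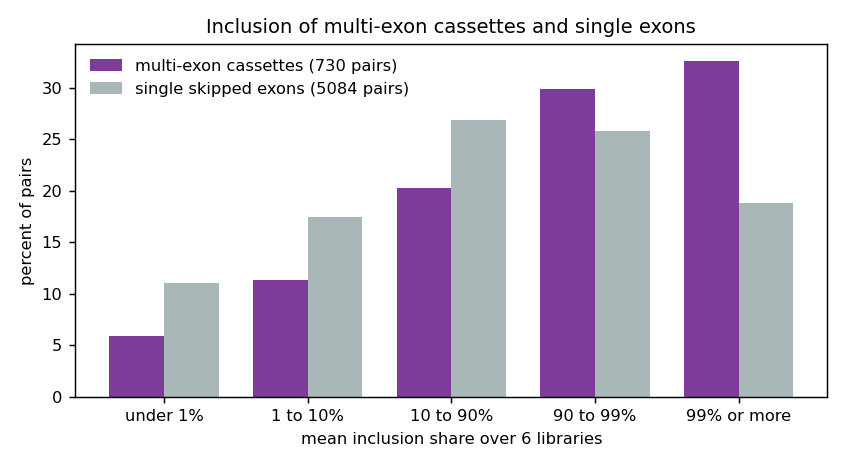
Percent of pairs (vertical axis) by mean inclusion share over the 6 libraries (horizontal axis), for 730 multi-exon cassettes and 5084 single skipped exons. The class of 99% or more holds 32.6% of the cassettes and 18.8% of the single exons, and the class between 10% and 90% holds 20.3% and 26.8%.

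Cassettes left out in a sizeable part of the transcripts more often had a length that keeps the reading frame. Of 71 coding cassettes with a mean share between 10% and 90%, 50 (70.4%) had a summed length that is a multiple of 3, and of 32 with a share under 10%, 23 (71.9%) did. Of 362 with a share of 90% or more, 47.8% did. Single coding exons ran the same way, with 60.8% of 859 between 10% and 90%, 76.6% of 321 under 10% and 37.6% of 2054 at 90% or more. These counts carry no test, since many exons share a gene.

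**Figure D2:**
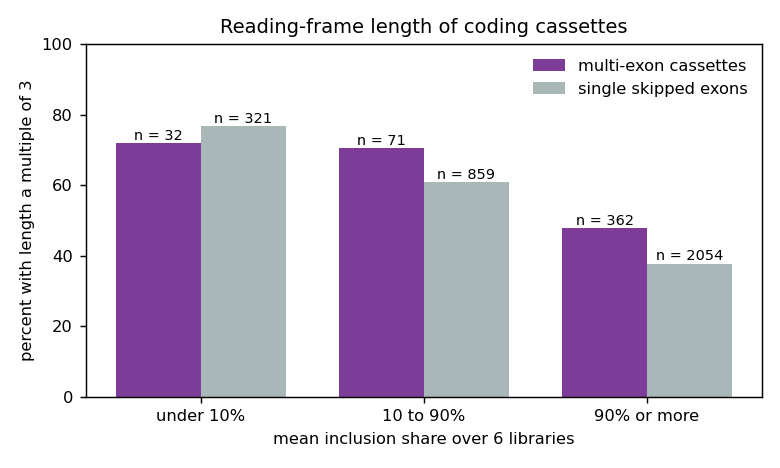
Percent of coding cassettes whose summed length is a multiple of 3 (vertical axis) by mean inclusion share (horizontal axis), for multi-exon cassettes and single skipped exons, with the number of pairs above each bar. Multi-exon cassettes under 10% and between 10% and 90% stand at 71.9% and 70.4%, and those at 90% or more at 47.8%.

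Of the 8 cassettes with the highest totals, 7 were nearly always kept or nearly always left out, and Hnrnpc (119 FPKM), an abundant hnRNP gene, was not: its 190-nucleotide chain was at 37.9%, 1.75% and 2.05% in Hspa9 cKO and at 0.778%, 1.20% and 2.02% in WT, so that 1 library stood apart. Ptma, which encodes prothymosin alpha, had the highest mean total, 1347 FPKM, and kept its cassette in at most 0.0841% in Hspa9 cKO and 0.315% in WT. Rps24 (329 FPKM) kept its own in at most 0.112% in Hspa9 cKO and 0% in WT. The ribosomal protein genes Rpl13a (470.0 FPKM) and Rpl9 (261 FPKM), the translation factor gene Eif3i (171 FPKM), the chaperonin gene Cct3 (135 FPKM) and the class I histocompatibility gene H2-K1 (154 FPKM) were at or close to full inclusion in all 6 libraries. H2-K1 has close paralogs, so its values are uncertain. A share of exactly 0% or 100% means that one event was not listed in that library, which can be a failed estimate, and both events were listed in all 6 libraries for 202 of the 730 pairs.

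Shares were close over the libraries for many cassettes and far apart for some. Of the 712 pairs with a share in every library, 318 (44.7%) had a range under 5 points and 79 a range of 50 points or more. The median SD within a group was 0.598 points in Hspa9 cKO and 1.27 points in WT. In 93 cases a single library stood more than 20 points above or below the other 5, and each of the 6 libraries did so 12 to 19 times. The longest run by exon number, 9 exons of the lysosomal channel gene Mcoln1, had 1 low library in each group and was kept in 34.0%, 100% and 100% in Hspa9 cKO and in 100%, 100% and 43.8% in WT. The 2 chains of 8 exons in Gon4l, a nuclear regulator, were at 100% in each Hspa9 cKO library, and the longer chain was at 57.9%, 81.4% and 100% in WT. The runs of 7 exons in Zmynd11, a reader of histone methylation, and of 6 in the transporter gene Slc38a10 were kept in at least 99.8% and 99.2% over all libraries.

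The comparison of Hspa9 cKO with WT asked whether inclusion of whole cassettes differed between the genotypes. Most differences were small. The median difference in share, Hspa9 cKO minus WT, was 0.13 points over the 712 cassettes and 0.16 points over 9629 pairs of all kinds with 6 shares, and its median size either way was 1.64 points over the cassettes and 2.98 points over all pairs. The difference was positive in 448 cassettes and negative in 264, and under 1 point either way in 307 (43.1%). Over all pairs with 6 shares it was positive in 5546 and negative in 4083, and under 1 point in 31.6%. Positive differences were thus the majority in both sets, by a larger part in the cassettes. This was not tested.

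No cassette passed the test. Log2 ratios of inclusion to skipping, each with 1 FPKM added, were fitted with limma over all 9781 pairs. At a two-sided Benjamini-Hochberg adjusted p under 0.05, limma called 0 of the 730 cassettes, beside 0.317% of all pairs (0.204% with higher and 0.112% with lower inclusion in Hspa9 cKO). The smallest adjusted p of a cassette in limma was 0.0879, for Ppil2. At an unadjusted p under 0.05 there were 81 cassettes (11.1%), beside 9.73% of all pairs, and the difference in share was under 1 point in 40 of them and at least 5 points in 29. Ratios were also simulated for all 9781 pairs, as normal noise with the spread of each pair. On these, limma recovered 2.99% of changes of 1 on the log2 scale, 29.85% of changes of 2 and 65.15% of changes of 4. The changed pairs were drawn from all kinds and the noise held no unlisted events, so these are not recovery rates for the cassettes. Run on the shares themselves, limma called 3 cassettes, in Hspa9, Arhgap1 and Erbin, each at an adjusted p of 0.0485. With 0.1 FPKM added in place of 1, limma called 2, in Ppil2 and Mrps18b, each at an adjusted p of 0.0442.

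The groups did not overlap in 66 of the 712 cassettes (9.27%), beside 10.3% of all pairs. Inclusion was higher in Hspa9 cKO in 55 of them and lower in 11. Of 9629 pairs of all kinds, 639 (6.64%) were higher without overlap and 354 (3.68%) lower. Lower inclusion thus made up a smaller part of the cassettes without overlap than of all pairs without overlap. Whether these parts differ was not tested. With a difference of at least 5 points there were 30 cassettes without overlap (4.21%), beside 6.01% of all pairs. With at least 20 points there were 14 (1.97%), 10 higher and 4 lower in Hspa9 cKO, beside 1.95% of all pairs, so that the share of large differences was close to the background.

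**Figure D3:**
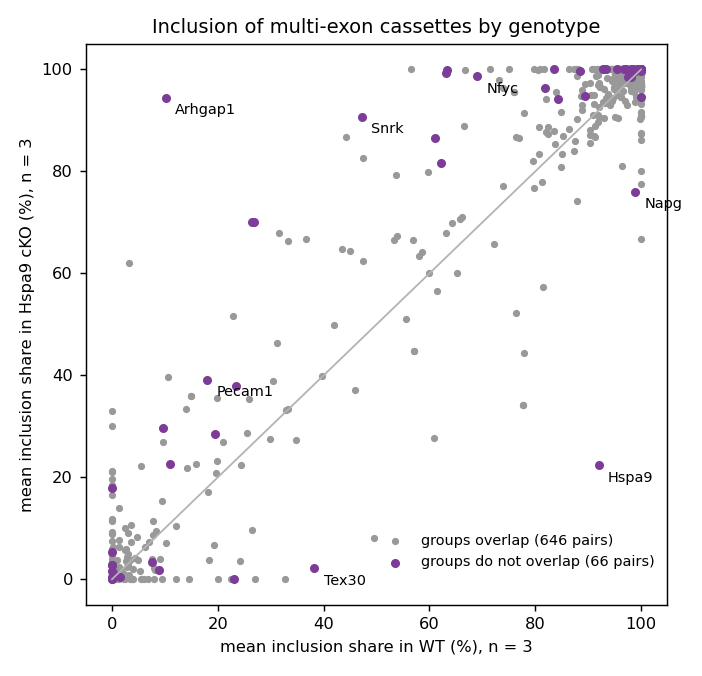
Mean inclusion share in Hspa9 cKO (vertical axis) against WT (horizontal axis), in percent, n = 3 libraries each, for the 712 cassettes with a share in every library; the line marks equal shares. Arhgap1 lies farthest above the line, at 94.5% in Hspa9 cKO and 10.2% in WT, and Hspa9 farthest below it, at 22.3% in Hspa9 cKO and 92.0% in WT.

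Hspa9 itself held the cassette with the largest change of the log2 ratio, rank 1 of 730, and the second largest difference in share, rank 2 of 712. It was singled out with this result known, so its values are a description. The cassette has 3 coding exons of 329 nucleotides (ENSMUSG00000024359; mm10 chromosome 18, 34951224 to 34952735, minus strand), and its skipping junction is not in the annotation. The share was 24.5%, 15.8% and 26.7% in Hspa9 cKO and 100%, 89.9% and 86.1% in WT. All Hspa9 cKO libraries lay far below all WT libraries, with means of 22.3% ± 5.78 in Hspa9 cKO and 92.0% ± 7.21 in WT (SD, n = 3 each). The log2 ratio differed by -5.90 ± 1.16 (SE; limma, adjusted p = 0.192). WT replicate 1 listed no skipping event, and without that library the log2 ratio differed by -4.59 ± 0.491 (SE; limma, adjusted p = 0.0775). The rank by log2 ratio was then 2 and the rank by share 5, and the rank by share was 3 without Hspa9 cKO replicate 1 and 14 with no filter on level.

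The including event of Hspa9 averaged 22.3 ± 4.78 FPKM in Hspa9 cKO and 106 ± 2.25 FPKM in WT (SD, n = 3 each). The skipping event of the pair averaged 78.4 ± 10.3 FPKM in Hspa9 cKO (SD, n = 3). It averaged 14.6 FPKM over WT replicates 2 and 3. Hspa9 is the gene that the cKO label names. Whether its exons were missing from the gene or skipped in splicing was not tested. The summed output of the Hspa9 locus differed by less than its spread. The including event and the skipping events at both acceptors of the next exon summed to 116.8 ± 6.88 FPKM in Hspa9 cKO and to 116.0 ± 9.26 FPKM in WT (SD, n = 3 each). The main transcript start had the identical value in each library, so it is not a separate measure of output. Of the skipped transcripts in Hspa9 cKO, 16.6%, 16.2% and 18.5% used the second acceptor, which no WT library listed. With both skipping events counted, the difference in share was -72.7 points, and -69.6 points with the first alone.

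Of 37 genes for mitochondrial chaperones, import and dynamics, 5 had cassettes, in 6 pairs, with 0 called. Of 5 pairs with 6 shares, 2 had groups that do not overlap, in Hspa9 and Tomm20, both lower in Hspa9 cKO. Over all pairs 10.3% did not overlap either way and 3.68% were lower. Since Hspa9 was singled out with its result known, the count says nothing about the list as a whole. Tomm20, a receptor of the outer membrane translocase, kept its cassette in 99.99% in every library, with a difference of -0.00169 points. Timm23, the inner membrane channel, was kept in 100%, 97.6% and 100% in Hspa9 cKO and in 100% in each WT library. Mff, which recruits the fission machinery, kept a coding cassette in under 1% in each Hspa9 cKO library and in 0.00667%, 2.57% and 0.798% in WT. Mief1, another fission factor, stood out in a single library, with 0%, 58.9% and 0% in Hspa9 cKO and 0% in each WT library.

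**Figure D4:**
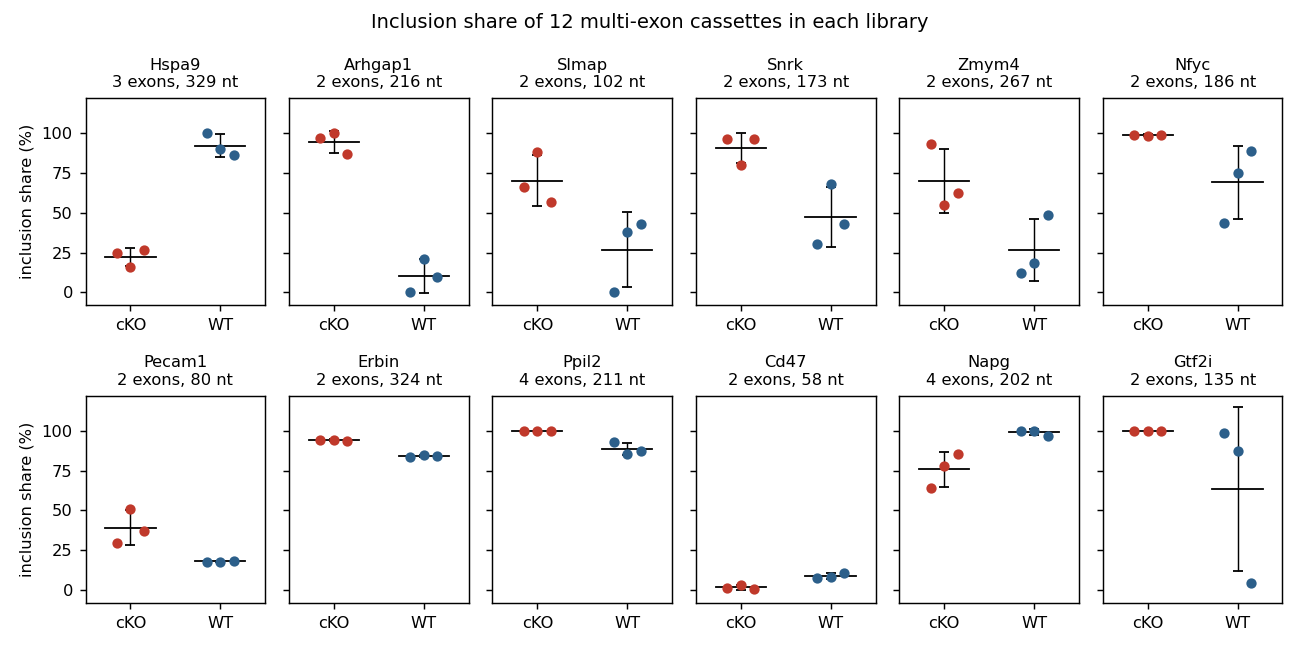
Inclusion share (vertical axis, percent) of 12 cassettes in each Hspa9 cKO library (left, red) and WT library (right, blue); horizontal lines are means and bars the SD, n = 3 each. Each gene is shown by its pair without overlap that had the largest share difference, so separation was a condition of being shown. Hspa9 stands at 15.8% to 26.7% in Hspa9 cKO and 86.1% to 100% in WT, and Erbin at 93.8% to 94.5% in Hspa9 cKO and 83.8% to 84.7% in WT.

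The largest difference in share lay in Arhgap1, which encodes a GTPase-activating protein (ENSMUSG00000027247; mm10 chromosome 2, 91651499 to 91651823). Its chain of 2 exons and 216 nucleotides is not annotated, and it was kept in 97.2%, 99.7% and 86.5% in Hspa9 cKO and in 0%, 21.2% and 9.39% in WT. The groups lay wholly apart, but levels were low and uneven. The including event stood at 1.95, 14.3 and 2.66 FPKM in Hspa9 cKO and at 0, 2.37 and 1.07 FPKM in WT, and the skipping event at 0.0570, 0.0376 and 0.415 FPKM in Hspa9 cKO and at 0.323, 8.79 and 10.3 FPKM in WT. The log2 ratio differed by 3.71 ± 0.898 (SE; limma, adjusted p = 0.287). A second including chain of 231 nucleotides, set against the same skipping event, was at 0%, 99.5% and 86.5% in Hspa9 cKO and at 0%, 0% and 9.39% in WT, where the groups overlapped.

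Among cassettes more included in Hspa9 cKO, Erbin and Ppil2 had tight shares and were chosen after their values were seen. Erbin, a scaffold protein that binds the receptor ERBB2, kept its 324-nucleotide cassette (mm10 chromosome 13, 103824720 to 103828023) in 94.5%, 94.4% and 93.8% in Hspa9 cKO and in 83.8%, 84.7% and 84.4% in WT. The skipping event stood at 1.54, 1.62 and 1.93 FPKM in Hspa9 cKO and at 3.67, 3.99 and 3.21 FPKM in WT, and the groups did not overlap. The log2 ratio differed by 1.26 ± 0.207 (SE; limma, adjusted p = 0.134). Another Erbin chain of 246 nucleotides, set against the same skipping event, was at 72.2%, 34.0% and 5.10% in Hspa9 cKO and at 45.8%, 43.0% and 48.9% in WT, with overlapping groups.

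Ppil2, a U-box cyclophilin found in spliceosomes, kept its run of 4 exons, whose 211 nucleotides are not a multiple of 3, in 99.9%, 99.7% and 99.7% in Hspa9 cKO and in 93.0%, 85.3% and 87.2% in WT. The skipping event was at 0.0467, 0.0839 and 0.0869 FPKM in Hspa9 cKO and at 1.87, 4.40 and 5.59 FPKM in WT, so that it was low in every Hspa9 cKO library. The log2 ratio differed by 2.13 ± 0.303 (SE; limma, adjusted p = 0.0879). Nfyc, a subunit of the CCAAT-binding factor NF-Y, kept 186 nucleotides in 99.1%, 98.1% and 98.8% in Hspa9 cKO and in 43.6%, 75.1% and 88.5% in WT. All Hspa9 cKO libraries were above all WT libraries, which spread widely (limma, adjusted p = 0.309).

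Slmap, a tail-anchored membrane protein, kept 102 nucleotides in 65.9%, 87.9% and 56.5% in Hspa9 cKO and in 0.0482%, 37.8% and 42.7% in WT. Snrk, an SNF1-related kinase, kept a cassette in the untranslated region in 96.2%, 79.8% and 96.0% in Hspa9 cKO and in 30.5%, 67.8% and 43.2% in WT. Zmym4, a zinc finger protein, kept 267 nucleotides in 93.0%, 55.0% and 62.2% in Hspa9 cKO and in 12.3%, 18.4% and 48.9% in WT. In these 3 genes the gap between the groups was smaller than the range within each group, and none was called (limma, adjusted p = 0.488 for Slmap, 0.318 for Snrk and 0.469 for Zmym4). Pecam1, an adhesion receptor whose cassette encodes part of the cytoplasmic tail, kept 80 nucleotides in 29.5%, 50.9% and 37.0% in Hspa9 cKO and in 17.8%, 17.8% and 18.4% in WT. Its WT libraries lay close together below all Hspa9 cKO libraries, and the log2 ratio differed by 1.32 ± 0.416 (SE; limma, adjusted p = 0.403).

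The other cassettes of this direction were less even. Icmt, the methyltransferase of prenylated proteins, had 86.7% ± 12.9 in Hspa9 cKO and 61.1% ± 5.22 in WT (SD, n = 3 each). The noncoding transcript 5830432E09Rik had 29.7% ± 6.98 in Hspa9 cKO and 9.56% ± 8.31 in WT (SD, n = 3 each). Gtf2i, which encodes the transcription factor TFII-I, was at 99.7%, 100% and 100% in Hspa9 cKO and at 98.4%, 87.4% and 4.27% in WT, so that 1 WT library made most of the difference. The same held for Tatdn2, a TatD-family nuclease gene, at 100%, 98.8% and 99.2% in Hspa9 cKO and at 91.7%, 0% and 97.7% in WT.

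Lower inclusion in Hspa9 cKO without overlap was rarer, in 11 cassettes. Napg, the gamma-SNAP of vesicle fusion, kept a run of 4 exons in 64.1%, 78.1% and 85.7% in Hspa9 cKO and in 100%, 100% and 96.8% in WT. Cd47, the ligand of SIRP alpha, kept 58 nucleotides of its cytoplasmic tail region in 1.40%, 3.32% and 0.538% in Hspa9 cKO and in 7.49%, 8.29% and 10.7% in WT. The including event of Cd47 stood at 1.07, 2.39 and 0.324 FPKM in Hspa9 cKO and at 3.98, 4.90 and 5.59 FPKM in WT. Its skipping event stood at 75.7, 69.7 and 60.0 FPKM in Hspa9 cKO and at 49.2, 54.2 and 46.7 FPKM in WT, so that both events lay apart between the groups, in opposite directions. The log2 ratio differed by -1.90 ± 0.370 (SE; limma, adjusted p = 0.192).

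Tm7sf3, a membrane protein, was at 95.0%, 93.0% and 95.6% in Hspa9 cKO and at 100% in each WT library. Rsrc2, an arginine- and serine-rich protein, had 3.43% ± 1.23 in Hspa9 cKO and 7.66% ± 1.49 in WT (SD, n = 3 each). Tex30 was at 6.40%, 0% and 0% in Hspa9 cKO and at 9.78%, 97.4% and 7.63% in WT, where 1 WT library stood apart. Tmem179b was at 0.152%, 0.00623% and 0.00717% in Hspa9 cKO and at 24.4%, 44.8% and 0.236% in WT. In Tpd52l2, Gnb1l and Kdm2b the differences were -1.12, -0.24 and -0.08 points, and for Gnb1l the log2 ratio differed by 0.35, in the other direction.

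Of 40 T cell genes, 3 had cassettes above the threshold, in 9 pairs, with 0 called and 0 without overlap, beside 0.317% and 10.3% of all pairs, so that a count of 0 among so few pairs says little. The chain of 3 exons and 417 nucleotides in Ptprc, which holds the variable extracellular segments, was kept in at most 0.0399% in Hspa9 cKO and 0.0212% in WT. The event that skips it stood at 98.5, 87.8 and 82.4 FPKM in Hspa9 cKO and at 104, 88.6 and 87.0 FPKM in WT, and the groups overlapped. Another Ptprc pair of 219 coding nucleotides, over an overlapping span, had a lower mean total of 7.77 FPKM. That cassette was kept in 99.6% or more in every library. Its span runs past one end of the 417-nucleotide chain, so its share does not tell which variable segments were kept. Ikzf1, which encodes the lymphoid factor Ikaros, kept 321 coding nucleotides in 60.8%, 2.09% and 4.72% in Hspa9 cKO and in 35.9%, 8.29% and 3.22% in WT, where 1 library of each group stood above the others. Tcf12, an E protein, had 6 pairs, all with overlapping groups. The largest difference among them, -41.5 points, lay in a 2-exon cassette at 12.9%, 3.13% and 8.12% in Hspa9 cKO and at 52.0%, 94.6% and 2.14% in WT. The runs of 5 and of 6 exons were at 32.6% and 0.0914% in Hspa9 cKO replicate 3 and at 100% in the other 5 libraries.

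Of 60 splicing regulators, 16 had cassettes, in 26 pairs, with 0 called. Among 23 pairs with 6 shares, 3 had groups that do not overlap, in Rbm39, Luc7l2 and Rbm25, all with higher inclusion in Hspa9 cKO and shares under 1% in every library, beside 10.3% of all pairs without overlap and 6.64% higher.  Hnrnpa1 was at 31.2%, 55.9% and 19.8% in Hspa9 cKO and at 11.9%, 39.9% and 7.73% in WT, and Mbnl1, a regulator of developmental splicing, kept 131 nucleotides in 95.4%, 88.4% and 72.5% in Hspa9 cKO and in 85.6%, 72.2% and 93.5% in WT. Both had overlapping groups. So did a 312-nucleotide Mbnl1 cassette, at 47.7%, 100% and 100% in Hspa9 cKO and at 100%, 5.92% and 36.2% in WT. The level of the Hnrnpa1 pair, inclusion plus skipping on the log2 scale, differed by -2.37 ± 0.456 (SE; limma, adjusted p = 0.0465). Srsf11 kept its cassette in at most 5.68% in Hspa9 cKO and 4.11% in WT. Clk4, a kinase of SR proteins, kept 204 nucleotides in at most 3.13% in Hspa9 cKO and 0.0630% in WT. A 126-nucleotide Clk4 chain over the same span went the other way, with at most 4.99% in Hspa9 cKO and 16.1% in WT. Tial1 kept 137 nucleotides in at most 3.40% in Hspa9 cKO and 4.90% in WT, and a 134-nucleotide chain in at most 7.59% and 4.90%. A 565-nucleotide Srsf4 chain was at 27.5% in Hspa9 cKO replicate 1 and at most 0.113% elsewhere. U2af1, a subunit of the factor that binds the 3′ splice site, was at 62.0% in Hspa9 cKO replicate 2 and above 99.9% elsewhere. Tia1, Luc7l, Ptbp3 and the fully measured pair of Hnrnpm stayed above 98% in every library. The median difference in share was 0.09 points over 23 pairs of the splicing regulators and -0.08 points over 9 pairs of the T cell genes. It was -0.80 points over 5 pairs of the mitochondrial genes, beside 0.16 points over all pairs. The mitochondrial value is that of Timm23, at 97.6% in Hspa9 cKO replicate 2 and 100% elsewhere, so it does not describe a shift of that list.

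The level of a cassette, inclusion plus skipping, was tested with the same design on log2(FPKM + 1). It was called in 31 of the 730 pairs (4.25%), 22 higher and 9 lower in Hspa9 cKO, beside 4.94% of all pairs (3.04% higher and 1.9% lower). The count was 1 without Hspa9 cKO replicate 3, 3 without Hspa9 cKO replicate 1 or WT replicate 1, 6 without Hspa9 cKO replicate 2, 8 without WT replicate 2, 16 without WT replicate 3 and 0 with a replicate block. The genes that follow were chosen after their values were seen. Gas5, a host transcript of small nucleolar RNAs, kept its run of 4 exons in over 99.9% in every library, with the including event at 51.6, 53.0 and 56.2 FPKM in Hspa9 cKO and at 23.5, 24.8 and 30.5 FPKM in WT. On the log2 scale its level rose by 1.01 ± 0.120 (SE; limma, adjusted p = 0.0153). The log2 ratio of Gas5 differed by 1.01 as well, since skipping was near 0 and 1 FPKM was added to both events.

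Other pairs showed the same tie between ratio and level. Of 189 cassettes whose level differed by at least 0.5 on the log2 scale either way, 57 had a ratio change within 0.1 of the level change and 11 within 0.1 of its negative. Pml, the gene of the nuclear body protein, had a higher level, with inclusion at 23.0, 23.4 and 25.5 FPKM in Hspa9 cKO and at 6.04, 7.07 and 10.7 FPKM in WT (limma, adjusted p = 0.0208). Lyar, a nucleolar protein, had a lower level, with skipping at 30.5, 23.2 and 25.9 FPKM in Hspa9 cKO and at 54.5, 52.6 and 57.0 FPKM in WT (limma, adjusted p = 0.0153). For the kinase gene Sik1 the level differed by -2.65 ± 0.196 (SE; limma, adjusted p = 0.00584), with inclusion at 4.32, 3.69 and 3.02 FPKM in Hspa9 cKO and at 21.8, 30.3 and 30.4 FPKM in WT. Ociad1, an endosomal and mitochondrial protein, had inclusion at 22.9, 49.0 and 22.6 FPKM in Hspa9 cKO and at 0.627, 3.87 and 0.654 FPKM in WT, and its level differed by 3.64 ± 0.524 (SE; limma, adjusted p = 0.0232). The cassettes of Hspa9, Arhgap1, Ppil2 and Erbin (216 nucleotides in Arhgap1, 324 in Erbin) were not called in level (limma, adjusted p = 0.279, 0.992, 0.709 and 0.162).

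**Figure D5:**
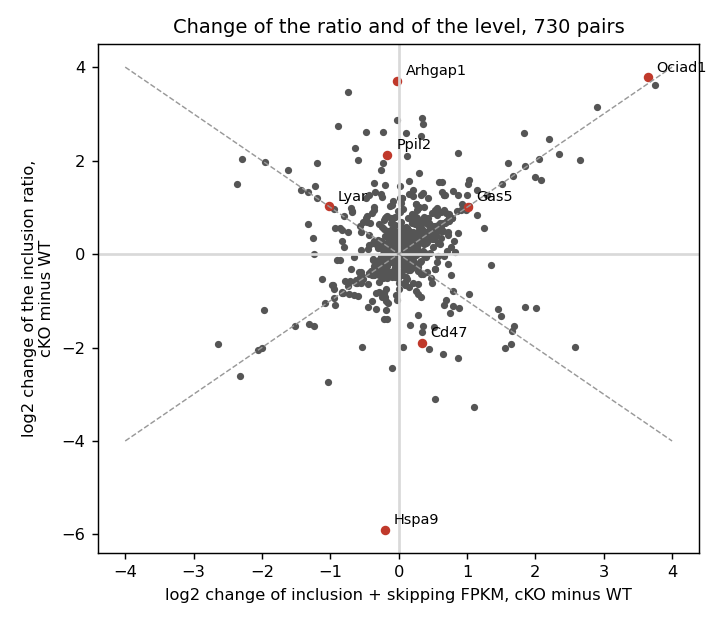
Log2 change of the inclusion ratio (vertical axis) against the log2 change of inclusion plus skipping (horizontal axis), Hspa9 cKO minus WT, for 730 cassettes, each on values with 1 FPKM added; dashed lines mark equal and opposite changes. Gas5 and Lyar lie near the dashed lines, while Hspa9 and Arhgap1 have level changes of -0.20 and -0.03 and ratio changes of -5.90 and 3.71.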

How the data were processed

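RNA was sequenced from DN3 thymocytes in 6 libraries, 3 Hspa9 cKO and 3 WT, grouped by the sample titles. The submitters' processing notes name cutadapt 1.9.1 and mm10, and no source used here names the aligner, assembler or event caller. The authors deposited an FPKM value for each event of 20 types, per the file headers, without counts.

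Repeated event numbers were dropped (0 had differing values) and unlisted events set to 0. Of 3832 including and 2155 skipping events, 1939 and 587 had no partner. Genes came from exon edges in GENCODE M21 for 724 of the 730 pairs. Alternative exon-end events have no counterpart and were left out. Log2((inclusion + 1)/(skipping + 1)) and log2(total + 1) were fitted with limma 3.58.1 in R 4.3.3 (trended, robust, Benjamini-Hochberg over 9781 pairs, threshold 0.05). An exact permutation of 3 against 3 libraries cannot go below p = 0.1. The ratio fit was tested on simulated data with 200 pairs changed, with 0 false calls.

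The members and lists were chosen with earlier results of these data known. The text names Hspa9, called cassettes, the 10 largest share differences per direction without overlap, the 8 highest totals, the 5 longest runs and listed genes, with exceptions marked. Some listed genes have further pairs that are not named. Alternatives were the pseudocount (0.1 FPKM), the filter (none or 10 FPKM), summed events, listed events only, a replicate block, limma on shares, and leaving out each library.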

Additional observations from a re-analysis of the deposited data

Results flagged for a closer look

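A skipping event of Hspa9 outside the paired measure, which joins the next exon at a second acceptor, averaged 16.1 FPKM over the 3 Hspa9 cKO libraries and was not listed in any WT library. It is a signal above the level in the control libraries. It made up 13.1%, 14.0% and 14.3% of the including and skipping events of this cassette in Hspa9 cKO replicates 1, 2 and 3.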

How the results depend on the processing

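The count of called cassettes was 2 with a pseudocount of 0.1 FPKM and 3 with limma on shares, and 0 under the other settings tried, each left-out library included. Groups did not overlap in 136 cassettes with no filter (of 1421), 39 at 10 FPKM (of 403), 28 where both events were listed in all 6 libraries (of 202), and 103 to 125 when single libraries were left out, where fewer libraries make overlap rarer by construction. No share over all pairs is given for these settings, so these counts cannot be set against a background. The Hspa9 rank by log2 ratio was 2 without WT replicate 1 and 1 otherwise, and its rank by share was 14 with no filter, 1 at 10 FPKM and 2 to 5 over the left-out libraries. Its difference in share lay between -72.6 and -65.6 points and its log2 ratio change between -6.67 and -4.59 over the left-out libraries, and that change was -7.09 with a pseudocount of 0.1 FPKM (limma, adjusted p = 0.603). Hspa9 has no value where both events had to be listed in all 6 libraries. The median difference lay between 0.04 and 0.13 points over the left-out libraries.

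Same-numbered libraries did not deviate together (correlations across pairs of 0.00172, 0.0113 and 0.0183 for numbers 1, 2 and 3), so the numbers were not taken as pairs. With a replicate block 0 cassettes were called on the ratio, the Hspa9 change was -5.90 (limma, adjusted p = 0.448), and 0 levels were called, beside 31 without it. Over the left-out libraries 1 to 16 levels were called. These level alternatives, and keeping repeated event numbers with another inner span (884 cassettes, 0 called, Hspa9 at rank 2), were chosen after seeing the data. Of the 67 values for other named cassettes, 16 turned sign when 1 library was left out, 15 of them differences in share between overlapping groups (Ikzf1 from 6.73 to -12.4 points and Mcoln1 from -3.25 to 18.8 points without Hspa9 cKO replicate 1, Mbnl1 from 1.65 to -4.16 points without WT replicate 2). The other was Gnb1l, with a log2 ratio change of -0.0141 without WT replicate 3 and of up to 0.72 over the left-out libraries. Once events with the same flanks were summed, the share difference was 9.23 points for Srsf4 (0.0762 and 9.18 for its 2 pairs before), -2.65 for Clk4 (1.04 and -3.70 before) and -15.6 for Mbnl2 (-1.27 and -14.6 before). The cause of these shifts was not tested.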
